A study of Mus musculus with 6 samples.

Results

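The genes described here are 10 germline genes of the piRNA pathway and of genome defence: Mael, Asz1, Tdrd1, Piwil2, Ddx4, Mov10l1, Tex19.1, Rnf17, Morc1 and Tdrd6. They were chosen by name. Every probe set of the expression array that carried one of these symbols alone was taken, with no filter on signal, which gave 13 of 45037 probe sets. These cover 9 of the 10 genes: Rnf17 had 4 probe sets, Asz1 had 2 and the other 7 genes had 1 each, while Tdrd6 had no probe set named for it alone and has no value here.

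The cells were primary dermal fibroblasts of B6 mice aged 0 to 2 days, of mixed sex, grown out of explants and used at passage 4. The treated group was 3 cultures given 5 µM 5-aza-2'-deoxycytidine during 96 hours, renewed every 24 hours, with another 24 hours in drug-free medium afterwards. The control group was 3 untreated cultures. This drug, also known as decitabine, is built into new DNA and traps DNA methyltransferases there, so that dividing cells lose methylation, and the comparison asks which transcripts differ after that exposure. Each culture has 1 array, and methylation itself was not analysed here.

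PIWI-interacting RNAs (piRNAs) are small RNAs of germ cells that guide Piwi proteins to transposon transcripts and, in fetal male germ cells, direct DNA methylation to transposon loci. The machinery sits in granules between mitochondria and around the nucleus, where Tudor-domain proteins hold Piwi proteins together with RNA helicases. In most somatic tissues these genes are silent, and CpG methylation of the promoter is a known part of that silence for several of them.

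Promoter sequence was at hand for 6 of the 10 genes, and 4 windows are shown for their CpG sites, whose methylation was not analysed here. They come from a pair of genes that rose (Tex19.1 and Asz1) and a pair that did not pass the test (Ddx4 and Mael). Each runs from 250 bases before to 50 bases after the RefSeq transcription start in the mouse build GRCm38.p6, and capitals mark every CpG. The windows are chr11:121145893-121146192 on the plus strand for Tex19.1, chr6:18109012-18109311 on the minus strand for Asz1, chr13:112652261-112652560 on the minus strand for Ddx4 and chr1:166238695-166238994 on the minus strand for Mael.
Tex19.1: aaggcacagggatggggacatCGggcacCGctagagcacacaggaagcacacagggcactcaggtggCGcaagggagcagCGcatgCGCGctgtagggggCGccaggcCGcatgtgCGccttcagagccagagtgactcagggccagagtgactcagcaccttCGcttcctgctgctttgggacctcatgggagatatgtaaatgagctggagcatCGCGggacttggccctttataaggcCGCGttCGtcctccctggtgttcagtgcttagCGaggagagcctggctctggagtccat
Asz1: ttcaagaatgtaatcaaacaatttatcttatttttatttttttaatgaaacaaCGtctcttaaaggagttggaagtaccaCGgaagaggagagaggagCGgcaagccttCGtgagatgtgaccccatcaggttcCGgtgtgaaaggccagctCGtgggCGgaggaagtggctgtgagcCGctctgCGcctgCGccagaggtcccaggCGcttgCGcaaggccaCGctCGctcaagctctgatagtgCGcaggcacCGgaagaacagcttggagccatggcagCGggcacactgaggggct
Ddx4: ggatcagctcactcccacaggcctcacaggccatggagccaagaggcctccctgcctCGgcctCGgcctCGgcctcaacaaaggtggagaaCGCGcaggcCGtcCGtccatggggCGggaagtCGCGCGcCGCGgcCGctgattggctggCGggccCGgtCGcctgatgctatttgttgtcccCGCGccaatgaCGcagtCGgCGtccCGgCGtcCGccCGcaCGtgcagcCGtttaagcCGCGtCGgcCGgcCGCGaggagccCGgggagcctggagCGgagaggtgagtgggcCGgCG
Mael: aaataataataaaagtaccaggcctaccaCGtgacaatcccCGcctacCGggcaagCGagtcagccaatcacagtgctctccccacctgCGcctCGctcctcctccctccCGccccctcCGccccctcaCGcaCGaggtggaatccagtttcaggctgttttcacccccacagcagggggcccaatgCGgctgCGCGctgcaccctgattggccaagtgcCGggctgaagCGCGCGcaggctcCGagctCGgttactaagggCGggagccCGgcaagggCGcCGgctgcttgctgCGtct

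The Tex19.1 window held 16 CpG sites and that of Asz1 held 17, against a median of 7 over all 32851 windows of the table. Those of Mael and Ddx4 held 24 and 38, Mov10l1 held 20, and the 3 annotated starts of Tdrd1 held 20, 25 and 3. All 6 genes thus had at least 1 window above the median of all windows, those that rose and those that did not. Piwil2, Rnf17, Morc1 and Tdrd6 were not matched to a window.

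A pair of short motifs was searched on both strands of each window, CACGTG (an E-box) and TCCCGC (the core of an E2F site, GCGGGA on the other strand), which share no overlap where found. Both are letters bound by factors known to repress germline genes in somatic cells. CACGTG occurred in windows of 4 of the 6 genes, Mael, Tdrd1, Ddx4 and Mov10l1, and in 7.15% of all windows. TCCCGC occurred in those of 3 genes, Mael, Ddx4 and Tex19.1, and in 20% of all windows. In Tex19.1 its first base lay 33 bases before the start, read on the minus strand of the window. A match is a description of letters and was not tied to binding or to the changes below.

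Before scaling, array brightness (the 2% trimmed mean signal) ran from 149.2 to 209.4 in treated cultures and from 179.1 to 223.9 in controls, and treated replicate 1 was the dimmest array. Signals below are scaled to a common trimmed mean of 193.2. Log2 signals correlated at 0.967 to 0.970 between arrays of a group and at 0.925 to 0.935 between groups. Of 9 fibroblast markers with a probe set, 8 lay above the median of every array. By the test used below, 8 of the 9 were lower in treated cultures, where 13.0% of all genes were lower. The summed signal of the 9 markers was 23464 to 28406 in treated cultures and 50691 to 58517 in controls. The 3' to 5' signal ratio of Actb, a sign of RNA integrity, was 1.16 ± 0.019 in treated cultures and 1.26 ± 0.010 in controls (SD, n = 3 each), with p = 0.1 in a two-sided exact permutation test, a design of 3 against 3 giving no smaller value. That of Gapdh was 0.764 ± 0.024 in treated cultures and 0.739 ± 0.016 in controls (exact permutation p = 0.2). The part of these differences in the results was not tested, and in bulk RNA a change in the share of cells that express a gene and a change in RNA per cell cannot be told apart.

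Tex19.1, Morc1 and Asz1 were higher in treated cultures, and no member was lower. By limma's moderated test with Benjamini-Hochberg adjustment over all 45037 probe sets, at an adjusted p under 0.05, 5 of the 13 member probe sets were higher and 0 were lower. At an unadjusted p under 0.05 the count of lower ones was also 0, the nearest being Ddx4 at 0.0662. Over all probe sets 9.07% were higher and 9.80% lower. In the dimmer part of the array, where the mean level lay below the median, 2.71% were higher and 2.29% lower. The median log2 change was 0.35 over the 13 probe sets and 0.00 over all probe sets. With each gene represented by its probe set of highest mean signal, 3 of 9 members were higher, against 12.2% of all 18193 genes. All log2 changes are treated minus control, on log2(scaled signal + 9.66), which understates the change of dim probe sets.

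**Figure D1:**
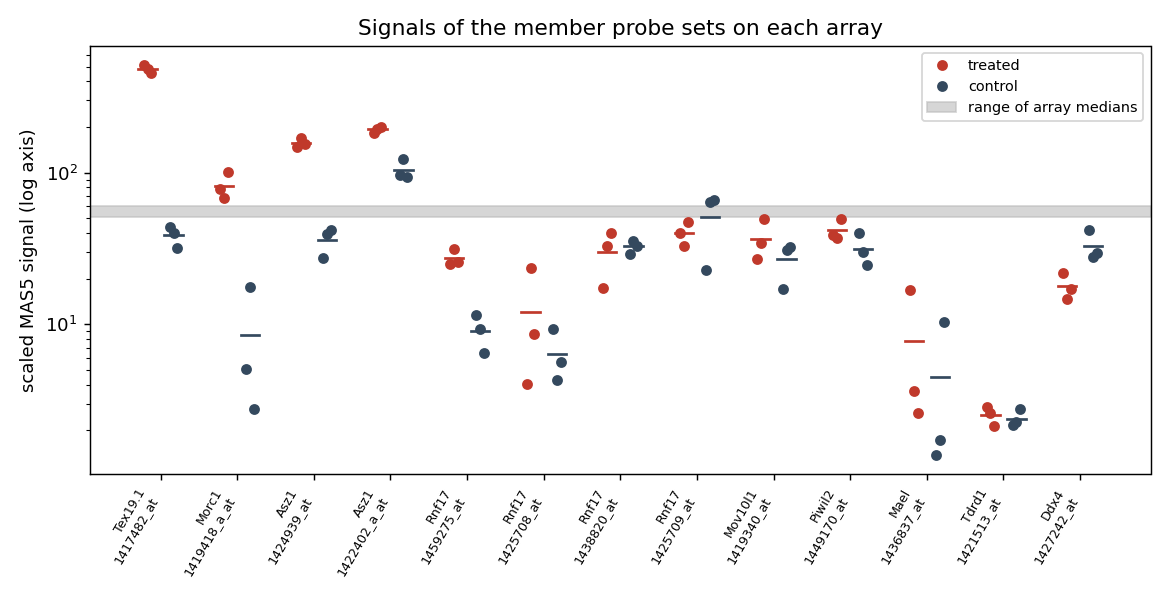
Scaled MAS5 signal (log axis) of each of the 13 member probe sets on the 3 treated arrays (red, left) and the 3 control arrays (dark, right), with group means as bars and the range of the array medians as a grey band. Tex19.1, Morc1 and the dimmer control probe set of Asz1 lay above the band in treated cultures and below it in controls, and most other members lay below it in both groups.

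Tex19.1 is a mammalian protein of germ cells, placenta and pluripotent cells that restrains retrotransposons. Its probe set 1417482_at had scaled signals of 510.3, 486 and 452 in treated cultures, against 44.0, 40.03 and 32.0 in controls. No array of one group came near the other, and the lowest treated array stood 3.10 log2 units above the highest control. The log2 change was 3.36 ± 0.15 (SE, n = 3 per group; adjusted p = 1.84e-06), a ratio of mean signals of 12.5. Its change ranked 73 of all 45037 probe sets. On each array the treated signals stood at percentiles 87.1 to 88.3 of all probe sets and the control signals at percentiles 38.1 to 46.3.

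Morc1, an ATPase of the microrchidia family that is needed for transposon silencing and for DNA methylation of transposons in male germ cells, was read by probe set 1419418_a_at. Treated cultures had scaled signals of 78.2, 68.2 and 100.5, against 5.09, 17.6 and 2.75 in controls. The groups did not overlap, and all 3 control values lay in the lowest part of the array, at percentiles 5.6 to 25.2, where the files give no detection call and a signal cannot be told from background. The treated values stood at percentiles 53.0 to 62.7, just above the array median. The log2 change was 2.41 ± 0.37 (SE; adjusted p = 0.00192). Because the controls were so dim, its size moved with the pseudocount, from 1.36 with a pseudocount 4 times larger to 3.19 with one 4 times smaller, both past the threshold.

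Asz1 (also called Gasz) is an ankyrin-repeat protein that anchors the piRNA machinery to mitochondria. It was read by both of its probe sets, and both were higher. On 1424939_at the scaled signals were 147.6, 169.5 and 153.7 in treated cultures, against 27.4, 39.6 and 41.7 in controls, a log2 change of 1.87 ± 0.21 (SE; adjusted p = 0.000348). On 1422402_a_at they were 183.0, 194.4 and 201.3 in treated cultures, against 95.9, 123.2 and 94.2 in controls, a log2 change of 0.84 ± 0.15 (adjusted p = 0.00394). The groups did not overlap on either probe set. The sets differed in their control values: the first lay at percentiles 36.6 to 44.0 in controls, and the second at percentiles 61.9 to 66.1, above the array median in untreated cells too. Without scaling of the arrays the smaller change lost its call (0.77, adjusted p = 0.0930).

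Rnf17, a Tudor-domain protein of germ cells with a RING finger that limits piRNA amplification in the mouse testis, gave no single answer. One of its 4 probe sets, 1459275_at, had scaled signals of 25.1, 31.4 and 25.6 in treated cultures, against 11.5, 9.28 and 6.51 in controls, with a log2 change of 0.99 ± 0.26 (SE; adjusted p = 0.0306). All 6 of those signals lay below the median of their array. That call was lost on leaving out any 1 of the 6 arrays (adjusted p from 0.0553 to 0.117) and without scaling (adjusted p = 0.108). The other 3 probe sets had log2 changes of 0.35, -0.20 and -0.13 with adjusted p from 0.569 to 0.848, and their groups overlapped. The brightest of them, 1425709_at, read 40.01, 33.0 and 47.1 in treated cultures and 23.0, 64.3 and 65.8 in controls, where control replicate 1 stood apart from the other controls.

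Piwil2 and Mov10l1 did not pass the test. Piwil2 (Mili), a Piwi protein that binds piRNAs and cuts transposon RNA, had scaled signals of 39.1, 37.1 and 49.5 in treated cultures, against 39.8, 30.2 and 24.6 in controls. Its log2 change was 0.33, with a 95% interval from -0.33 to 1.00 (adjusted p = 0.530), so the 0.84 of the smaller Asz1 change lies inside the interval. Mov10l1, the RNA helicase that feeds piRNA precursors into processing, read 26.8, 34.2 and 49.3 in treated cultures, against 17.2, 31.0 and 32.2 in controls (log2 change 0.35, interval -0.41 to 1.11, adjusted p = 0.570). For both genes the groups overlapped and every array read below its median.

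Ddx4 (Vasa, Mvh) is a DEAD-box RNA helicase of the germ granule and a standard germ cell marker. Its probe set read 21.8, 14.7 and 17.1 in treated cultures, against 41.8, 27.6 and 29.3 in controls. All treated arrays lay below all controls, which was the case for 17.3% of all probe sets. The log2 change was -0.62, with an interval from -1.30 to 0.05 and an adjusted p of 0.207. Among the 13 probe sets it was the sole one whose treated arrays all lay below the controls, while 5 had all treated arrays above them, as had 16.8% of all probe sets, and 7 overlapped.

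Mael (Maelstrom), a protein of germ granules needed for transposon silencing, and Tdrd1, a Tudor-domain scaffold that binds Piwi proteins, were among the dimmest readings. Mael had scaled signals of 16.96, 3.63 and 2.58 in treated cultures, against 1.38, 1.73 and 10.3 in controls. One array of each group stood above the rest, and the change had no stable sign (log2 0.26, interval -0.52 to 1.04, adjusted p = 0.695). Tdrd1 read 2.85, 2.60 and 2.12 in treated cultures and 2.16, 2.27 and 2.75 in controls, at percentiles 3.3 to 6.6 of the arrays. Its log2 change was 0.02, with an interval from -0.27 to 0.31 (adjusted p = 0.961). All 6 signals lay below the pseudocount.

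**Figure D2:**
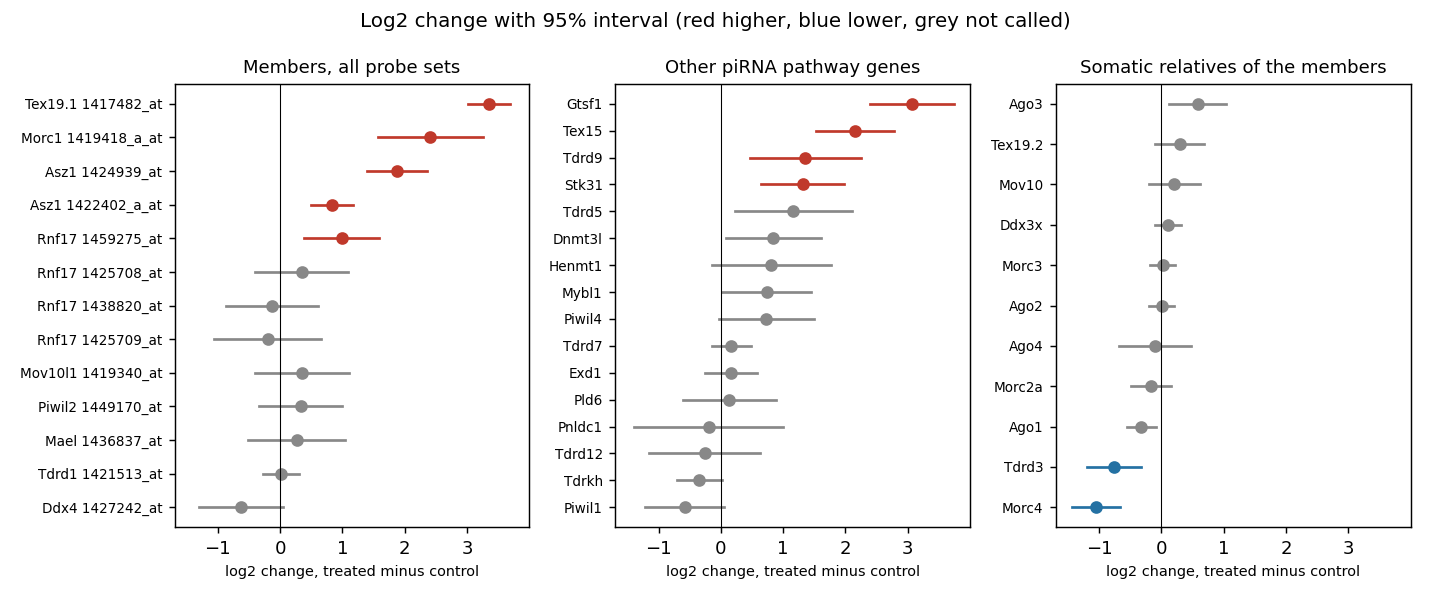
Log2 change (treated minus control) with its 95% interval for the 13 member probe sets, for 16 other piRNA pathway genes and for 11 somatic relatives, in red where higher, blue where lower and grey where not called. The changes of Tex19.1 (3.36) and Gtsf1 (3.07) lie far right of zero, and no somatic relative is called higher.

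The other genes of the pathway were read from a list of 20, of which 16 had a probe set. By the same test 4 were higher and 0 were lower, against 12.2% higher and 13.0% lower among all genes, and the median log2 change was 0.73, against 0.02 over all genes. In 9 of the 16 all treated arrays lay above all controls, as in 16.8% of all probe sets. Gtsf1, a zinc-finger cofactor of Piwi proteins, had scaled signals of 347.3, 388 and 302.4 in treated cultures, against 18.2, 57.7 and 30.4 in controls, with a log2 change of 3.07 ± 0.30 (SE; adjusted p = 0.000138). Its other probe set changed by 3.02 (adjusted p = 0.00225).

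Tex15, a germ cell protein of transposon silencing and meiotic recombination, read 109.8, 104.2 and 105.9 in treated cultures, against 23.8, 14.9 and 12.2 in controls (log2 change 2.15 ± 0.27, adjusted p = 0.000693). Stk31, a Tudor-domain kinase of germ cells, had a log2 change of 1.32 ± 0.29 (adjusted p = 0.0131), with 27.6, 28.3 and 27.03 in treated cultures and 4.92, 11.1 and 1.42 in controls, all below the array medians. The Tudor-domain helicase Tdrd9, a partner of Piwil4, read 84.7, 34.9 and 63.7 in treated cultures, against 15.6, 27.6 and 9.67 in controls (1.36 ± 0.39, adjusted p = 0.0417). The Tdrd9 call was lost in most alternatives: without scaling (adjusted p = 0.0555), after quantile normalization (0.0503), without the intensity trend (0.0548) and without treated replicate 1 or 3 or control replicate 1 or 3 (0.103 to 0.132). Stk31 lost its call without control replicate 3 (1.10, adjusted p = 0.0630), which left 2 of the 16 higher.

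Several remaining pathway genes had treated arrays above controls but missed the threshold. These were the Tudor-domain protein Tdrd5 (log2 change 1.17, adjusted p = 0.0893), the methyltransferase cofactor Dnmt3l (0.84, adjusted p = 0.131), the piRNA methyltransferase Henmt1 (0.81, adjusted p = 0.248), the transcription factor Mybl1 (0.73, adjusted p = 0.159) and the nuclear Piwi protein Piwil4 (0.73, adjusted p = 0.189). Tdrd5 passed without control replicate 1 (1.59, adjusted p = 0.0220). Piwil1 (Miwi), the Piwi protein of later spermatogenesis, changed by -0.58 (adjusted p = 0.211).

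Of the 11 somatic relatives of the members, 9 stood above the array median on all 6 arrays, against 1 of the 9 measured members. Each gene was read by its probe set of highest mean signal. Of these 11 genes 0 were higher and 2 lower, with a median log2 change of 0.01, where 12.2% of all genes were higher and 13.0% lower. The helicase Ddx3x, related to Ddx4, averaged 3773 ± 141 in treated cultures and 3518 ± 372 in controls (SD, n = 3 each), a log2 change of 0.11 (adjusted p = 0.529), which turned to -0.025 under quantile normalization. Mov10, the somatic relative of Mov10l1, changed by 0.21 (adjusted p = 0.527). Its dimmer probe set changed by -0.77 (adjusted p = 0.276). Argonaute genes, which share the Piwi fold with Piwil2, changed by -0.32 (Ago1), 0.01 (Ago2), 0.58 (Ago3) and -0.10 (Ago4). None passed the threshold over all probe sets (adjusted p from 0.0569 to 0.972). Ago1 and Ago3 passed it when dim probe sets were left out of the test (adjusted p = 0.0401 and 0.0393). The other probe sets of Ago3 changed by -0.04, -0.12, -0.11 and 0.06, none called (adjusted p from 0.77 to 0.956). That of Ago4 changed by -0.78 (adjusted p = 0.178).

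Of the 3 relatives of Morc1, 1 was called. Morc4, an X-linked ATPase of the same family, was lower, with 78.1 ± 12.8 in treated cultures and 170.8 ± 17.5 in controls (SD, n = 3 each), a log2 change of -1.05 ± 0.17 (SE; adjusted p = 0.00263). Morc2a (-0.17, adjusted p = 0.516) and Morc3 (0.02, adjusted p = 0.935) were not called. Tdrd3, a Tudor-domain protein of somatic cells, was lower by its brightest probe set (-0.76, adjusted p = 0.0217). That call was lost on leaving out either of treated replicates 2 and 3 or control replicate 1 (adjusted p from 0.0725 to 0.0771), and its other probe sets changed by -0.48 and -0.66 without a call.

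Tex19.2, the neighbour and closest relative of Tex19.1, averaged 107.2 ± 11.6 in treated cultures and 85.6 ± 6.57 in controls (SD, n = 3 each). Its log2 change was 0.29 ± 0.17 (SE; adjusted p = 0.319), against 3.36 for Tex19.1. The Tex19.2 promoter window held 2 CpG sites and that of Tex19.1 held 16. That of Ddx4, which was not called, held 38, and that of Gtsf1, which was higher, held 13. The part of CpG number in these changes was not tested.

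Genes that silence retroelements in somatic cells were read as a further list, of which 19 of 21 had a probe set. Each gene was represented by its probe set of highest mean signal. Here 7 were lower and 2 higher, with a median log2 change of -0.26, against 13.0% lower and 12.2% higher among all genes. The chromatin remodeller Atrx (-0.84 ± 0.097, SE; adjusted p = 0.00037), the histone methyltransferase Ehmt1 (-0.63 ± 0.080), the Setdb1 partner Atf7ip (-0.70 ± 0.10), the heterochromatin protein Cbx1 (-0.85 ± 0.14), Ehmt2 (-0.60 ± 0.11) and the corepressor Trim28 (-0.38 ± 0.074) were lower. The seventh, the cytidine deaminase gene Apobec3 (-0.66, adjusted p = 0.0449), lost its call on leaving out any 1 array (adjusted p from 0.0813 to 0.157). The histone methyltransferase Suv39h2, known for its testis expression, was higher, at 221.8, 206.5 and 147.2 in treated cultures, against 32.9, 39.4 and 41.8 in controls (2.06 ± 0.21, adjusted p = 0.000202). Zfp809, a zinc-finger protein that recruits silencing to endogenous retroviruses, averaged 420.0 ± 29.7 in treated cultures and 209.5 ± 15.3 in controls (SD, n = 3 each; log2 change 0.97, adjusted p = 0.000213). Without scaling, 4 of the 19 were lower and 2 higher, and Trim28 (adjusted p = 0.212) and Ehmt2 (adjusted p = 0.0767) were among those that lost their calls. Further probe sets of the lower genes differed in part. Those of Cbx1 changed by -0.45 (adjusted p = 0.0084), -0.04, 0.49 and 0.96, only the first being called. Those of Atrx ran from -0.89 (adjusted p = 0.00276) to 0.57 (adjusted p = 0.15). Those of Atf7ip (0.13 and -0.39), Ehmt2 (-0.60) and Trim28 (-0.22) were not called. Pphln1 and Samhd1, not called, each had another probe set that was, at 0.46 (adjusted p = 0.015) and -0.42 (adjusted p = 0.031).

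Genes of the meiotic chromosome axis and recombination, another germline set, gave 2 higher and 1 lower of 21, with a median log2 change of 0.10, counts no larger than the 12.2% higher and 13.0% lower among all genes. The recombination gene Mnd1 (4.66 ± 0.25, SE; adjusted p = 5.25e-06) and the synaptonemal complex gene Sycp1 (1.30 ± 0.30, adjusted p = 0.0148) were higher, and Syce2 (-0.83 ± 0.13, adjusted p = 0.00175) was lower. Sycp1 lost its call without control replicate 3 (1.27, adjusted p = 0.0506) and without scaling (1.23, adjusted p = 0.0506). The difference between this set and the members was not tested.

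Markers of other cells were read alongside. Of 12 spermatid genes 0 were higher and 1 lower, where 12.2% of all genes were higher and 13.0% lower. Their summed signal was 650 to 809 in treated cultures and 712 to 876 in controls. The transition protein genes Tnp1 and Tnp2 had means of 7.97 and 4.34 in treated cultures and 2.50 and 3.72 in controls. Keratinocyte (6 genes), melanocyte (5) and endothelial (5) markers gave 0 calls in either direction, beside the same shares of all genes. Their summed signals overlapped between groups for melanocyte (271.1 to 418.6 treated, 255.8 to 428.8 control) and endothelial genes (228.7 to 327.2 treated, 240.7 to 280.6 control), and were 396 to 504 in treated cultures and 338.8 to 392.1 in controls for keratinocyte genes. Of 5 leukocyte markers 1 was higher, Cd68 (log2 change 1.08, adjusted p = 0.0183), where 12.2% of all genes were higher. The sum of the 5 leukocyte markers was 508 to 632 in treated cultures and 371.0 to 444.5 in controls. The part of the keratinocyte and leukocyte sums in the members' changes was not tested.

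The nearest named gene with a probe set on either side of each member was read to see whether changes reached beyond the member. These 20 neighbours gave 5 higher and 1 lower, against 12.2% higher and 13.0% lower among all genes, with a median log2 change of 0.10. Beside Asz1, the secreted factor Wnt2 had a log2 change of 1.75 ± 0.32 (SE; adjusted p = 0.00518), from means of 38.0 in treated cultures and 3.92 in controls, both below the array medians. Cftr, on the other side of Asz1, changed by 0.67 (adjusted p = 0.233).

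Beside Morc1, Dppa2, a gene of pluripotent and germ cells, was higher on both of its probe sets. It changed by 1.42 ± 0.39 (SE; adjusted p = 0.0323) on the brighter one, with means of 68.1 in treated cultures and 21.3 in controls, and by 2.75 (adjusted p = 0.00177) on the other. The call of the brighter one was lost on leaving out any array but control replicate 2 (adjusted p from 0.0606 to 0.104). Trat1, on the other side, changed by 0.19 (adjusted p = 0.643). Around Tex19.1 neither Tex19.2 nor the receptor gene Uts2r (-0.45, adjusted p = 0.576) was called.

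Other neighbours were called beside members that were not called or, for Tdrd6, had no value. Slc39a14 (0.71, adjusted p = 0.00578) and Polr3d (0.66, adjusted p = 0.00269), on both sides of Piwil2, were higher, as was Pla2g7 beside Tdrd6 (1.58, adjusted p = 0.0300), whose call was lost without any single treated array and whose change was 0.97 without control replicate 3. Without scaling Slc39a14 and Polr3d lost their calls. Ccdc186 beside Tdrd1 was lower (-0.75, adjusted p = 0.00337).

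**Figure D3:**
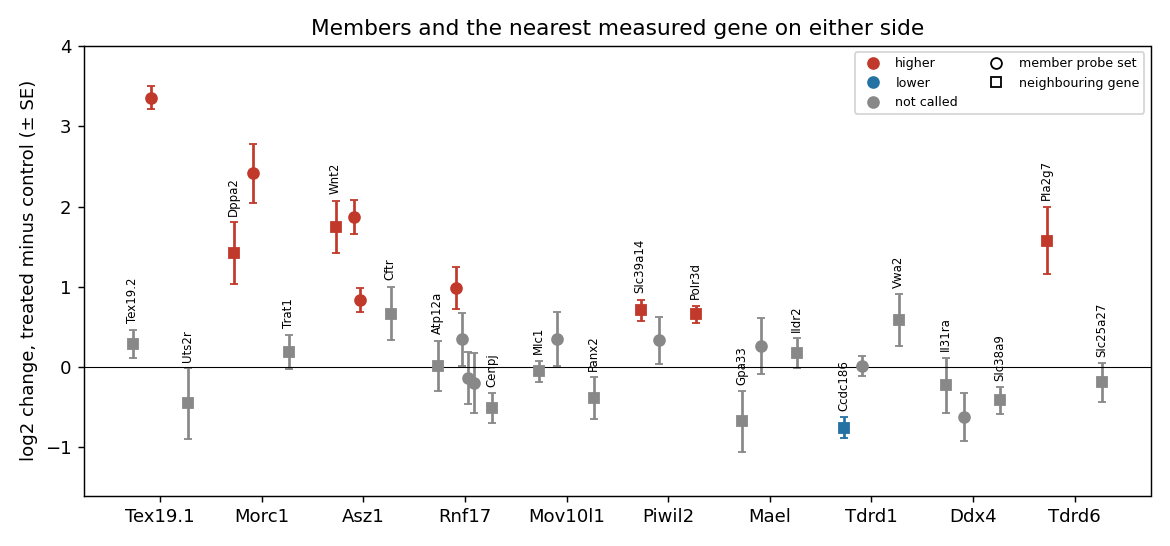
Log2 change (treated minus control) with its SE for each member probe set (circles) and for the nearest measured gene on either side (squares), in red where higher, blue where lower and grey where not called. Morc1 and Asz1 each have 1 neighbour called higher (Dppa2 and Wnt2), and Tex19.1 has none.

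The transcripts whose pattern over the 6 arrays lay closest to that of Tex19.1, by Euclidean distance between log2 signals centred on the control mean, were Bcl2l15 (distance 0.44), Serpinb6b (0.44) and Atp1b1 (0.46). Their log2 changes were 3.26, 3.31 and 3.30. Serpinb6b averaged 785 ± 49.4 in treated cultures and 70.3 ± 7.80 in controls (SD, n = 3 each).

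**Figure D4:**
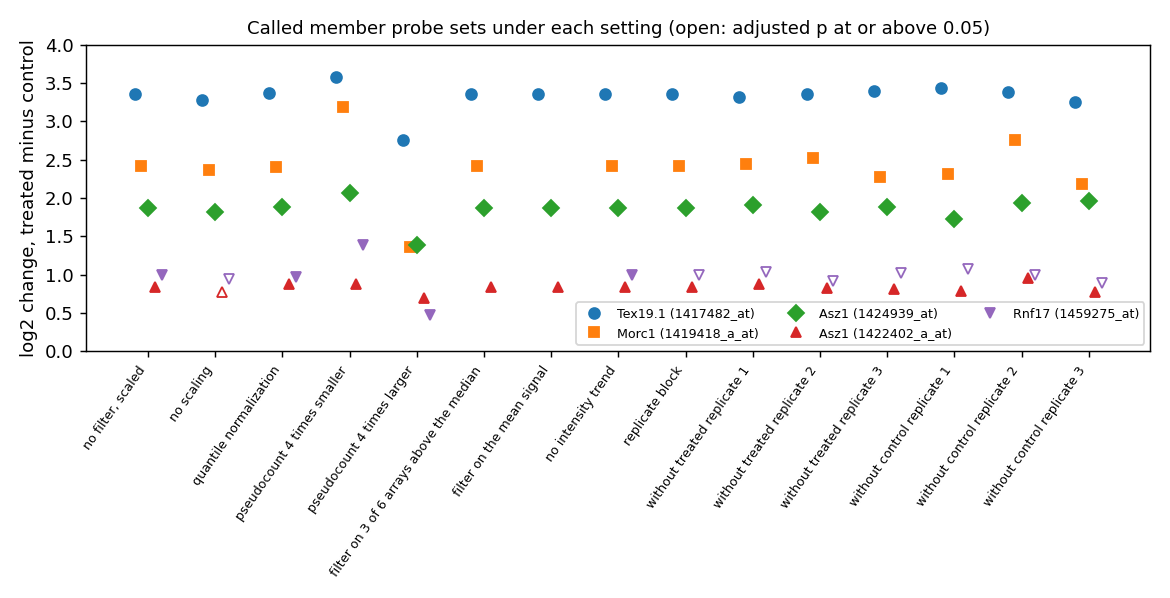
Log2 change (treated minus control) of the 5 called member probe sets under the settings used throughout and under 14 alternatives, with open symbols where the adjusted p was 0.05 or more. Tex19.1, Morc1 and 1424939_at of Asz1 stay filled wherever they could be tested, and 1459275_at of Rnf17 is open without any single array. Tex19.1, Morc1 and 1424939_at passed the filter on 3 of 6 arrays above the median through their treated arrays alone. That setting therefore adds no support for their calls. The same holds for Tex19.1 and 1424939_at under the filter on the mean signal.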

How the data were processed

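The deposited values are MAS5 signal intensities on a linear scale, 1 per probe set and array, and the submitters' processing notes name MAS5. No version, target intensity or detection call is stated for them. The authors labelled total RNA with biotin by in vitro transcription, per the labels' protocols. Signals were scaled to a common 2% trimmed mean of 193.2 and transformed to log2(signal + 9.66), the pseudocount being 0.05 of that mean. After leaving out 64 control probe sets, all 45037 others were fitted with no filter on signal, since the gene set takes every probe set, by limma (version 3.58.1, R 4.3.3; lmFit, then eBayes with trend), two-sided, with group as the sole term. Adjusted p-values under 0.05 (Benjamini-Hochberg) were called. Intervals are 95% intervals of this fit. The number of arrays limits the precision. The procedure was tested on simulated data.

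The platform's annotation supplied gene names: 34945 named 1 gene, 932 several and 9160 none listed there. A listed gene was represented by its probe set of highest mean log2 signal. All members and somatic relatives, the called genes of the other lists (up to 6 in each direction), the neighbours and the 3 closest patterns were to be named; uncalled pathway genes, Apobec3, marker genes and further probe sets were chosen after their values were seen. Gene order came from RefSeq on GRCm38.p6, as did the promoters. The members and lists were chosen with earlier results of these data known. Treated and control cultures share replicate numbers. Whether a number marks a shared explant is not stated, so it was no term of the fit. The alternatives were other scalings, pseudocounts, filters, variance models, a replicate block and leaving out each array.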

Additional observations from a re-analysis of the deposited data

How the results depend on the processing

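No member probe set was lower under any of the 14 alternatives. With no scaling 3 member probe sets were higher, and 1757 of all probe sets were higher and 2595 lower, against 4084 and 4415 with it; somatic silencing genes then gave 4 lower and meiotic genes 1 higher. The filter on 3 of 6 arrays above the median, which 4 of the 13 member probe sets passed, left 1 somatic relative and 1 meiotic gene higher. Tex19.1, Morc1 and 1424939_at of Asz1 passed it through their treated arrays alone, so it adds no support for their calls. The filter on the mean signal, which tested 3 member probe sets, left 3 of them, 1 pathway gene, 1 somatic relative and 0 meiotic genes higher. Tex19.1 and 1424939_at of Asz1, below the array medians in controls, passed the mean filter through their treated arrays. It therefore adds no support for those calls either. Tex15 and Mnd1 did not pass the mean filter, and Stk31, Tdrd9 and Sycp1 passed neither filter. There these genes were left untested, which is no loss of their calls. Without the intensity trend 1 somatic relative was higher and 1 lower. Leaving out 1 array gave 4 member probe sets higher each time, 2 to 4 pathway genes higher, 1 to 2 somatic relatives lower and 1 to 2 meiotic genes higher. Signs turned for Tdrd1 (-2.82e-05), Ago2 (-0.068) and Morc3 (-0.057) with no scaling, and for Ddx3x (-0.025) after quantile normalization. On leaving out 1 array, values ran from -0.091 to 0.54 for Mael, -0.0033 to 0.04 for Tdrd1, -0.0094 to 0.63, -0.60 to 0.0076 and -0.32 to 0.12 for 3 probe sets of Rnf17 (1425708_at, 1425709_at, 1438820_at), -0.56 to 0.20 for Tdrd12, -0.81 to 0.13 for Pnldc1, -0.062 to 0.054 for Ago2 and -0.059 to 0.077 for Morc3. The filters and the left-out arrays put fewer probe sets or arrays in the test, and the cause of these shifts was not tested. Same-numbered cultures deviated together with correlations of 0.0998, 0.101 and 0.040, which does not establish pairing, and each correlated best with its own number. With the replicate block the call of Rnf17 was lost (0.99, adjusted p = 0.0537) so that 4 member probe sets were higher, and Tdrd9 lost its call too (adjusted p = 0.0686), which left 3 pathway genes higher.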
